A study of Mus musculus with 6 samples.

Results

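The CC chemokine genes Ccl2, Ccl7, Ccl20, Ccl5, Ccl9 and Ccl28 were examined in mTECs, a mouse line of renal tubular epithelium. They were the rows of the deposited table whose mouse symbol in GENCODE M21 is one of these 6 names, and all 6 were found among 22442 genes. RNA was sequenced from 6 libraries, all given LPS (20 μg/ml, 24 h), a bacterial lipopolysaccharide that activates Toll-like receptor 4. The cells of 3 libraries (labelled LPS) had first received a negative control, and those of the other 3 (labelled LPSKD) an RNA against Stat3. The labels call this RNA an siRNA and the cells magnetically sorted, whereas the methods describe an immortalised line, and the mouse Stat3 sequence listed in the supplement is an shRNA. No library of cells without LPS was among the samples, so what LPS itself did to these genes cannot be read from them.

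CC chemokines are small secreted proteins named for a pair of adjacent cysteines near the start of the mature protein. They bind G-protein-coupled receptors on leukocytes and draw these cells along a gradient into tissue. Injured renal tubular epithelium is a known source of such signals, among which Ccl2 draws monocytes into the kidney.

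The RNA level of Stat3, the targeted gene, did not bear out the labels. Its FPKM, the fragments of a gene scaled to its length and to the total of the library, was 34.6, 31.4 and 35.2 in the LPS-labelled libraries and 30.8, 35.2 and 34.3 in the LPSKD-labelled ones. The groups overlapped and the log2 fold change was −0.01 (95% interval −0.17 to 0.14, limma adjusted p = 0.944), so the groups are given here by their labels. The study itself reported the knockdown of Stat3 in mTECs by real-time PCR and western blot. These libraries hold no measure of the protein. The depth was even, with 24084827 to 25422171 fragments per library, and the number of fragments behind each FPKM value could be worked out. Epithelial and renal genes such as Krt8, Epcam, Cdh16 and Pax8 were high, with mean FPKM of at least 74.5 in each group, while markers of single tubule segments were low or at 0. Of these, Slc34a1, Umod, Aqp2 and Calb1 were at 0 in every library and Lrp2 had at most 3 fragments, whereas the proximal tubule genes Cubn (mean FPKM 0.951 and 0.938 in the LPS-labelled and the LPSKD-labelled libraries) and Aqp1 (4.33 and 8.34) were detected in all 6. Of these markers, Cdh16, Pax2, Pax8 and Aqp1 were higher in the LPSKD-labelled libraries and Krt18 was lower (adjusted p between 0.00101 and 0.0319 from limma).

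The feature that names the family is shown in the coding sequence of each gene, as 60 bases in which the codons of the adjacent cysteines are in capitals. The sequences are those of the first-numbered transcript of each gene in GENCODE M21.
Ccl2: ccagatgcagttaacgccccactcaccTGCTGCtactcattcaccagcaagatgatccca
Ccl7: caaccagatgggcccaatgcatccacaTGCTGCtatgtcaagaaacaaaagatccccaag
Ccl20: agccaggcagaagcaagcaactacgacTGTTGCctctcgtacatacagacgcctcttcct
Ccl5: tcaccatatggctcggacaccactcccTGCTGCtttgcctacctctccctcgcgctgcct
Ccl9: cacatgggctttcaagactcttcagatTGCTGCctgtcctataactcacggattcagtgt
Ccl28: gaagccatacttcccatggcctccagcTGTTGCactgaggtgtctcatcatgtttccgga
The adjacent cysteine codons of Ccl2 lie at chr11:82036506-82036511 on the plus strand of GRCm38, in exon 2 of 3, and those of Ccl7 at chr11:82046538-82046543, also in exon 2 of 3. In Ccl20 they lie at chr1:83117813-83117818 on the plus strand and in Ccl28 at chr13:119645892-119645897 on the plus strand, both in exon 2 of 3. Those of Ccl5 lie at chr11:83529242-83529247 on the minus strand, in exon 2 of 3, and those of Ccl9 at chr11:83575926-83575931 on the minus strand, in exon 3 of 4. Each coding sequence held 1 such pair. Any 2 of the windows, lined up at the cysteine codons, had between 26.7% and 45.0% of their bases in common, with these codons counted. No stretch of 31 bases in the 6 coding sequences occurred in an annotated transcript of another gene.

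The members differed widely in level. By mean FPKM over the 6 libraries, Ccl20 ranked 1523 and Ccl2 ranked 5589 among 16837 genes above 0. Ccl5 ranked 9796, Ccl7 ranked 10493, Ccl9 ranked 10598 and Ccl28 ranked 13850. In the LPS-labelled libraries, the FPKM of Ccl20 (62.2 ± 4.44, SD, n = 3) exceeded that of Ccl2 (19.6 ± 1.5, SD, n = 3), which exceeded that of Ccl5 (6.02 ± 2.06, SD, n = 3). Ccl7 and Ccl9 followed and overlapped each other, and Ccl28 was not detected. In the LPSKD-labelled libraries, Ccl7 and Ccl9 again overlapped each other, and Ccl5 (1.13 ± 0.857, SD, n = 3) overlapped Ccl9 and lay below Ccl7, its highest value of 1.67 being close to the lowest of Ccl7 (1.71).

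**Figure D1:**
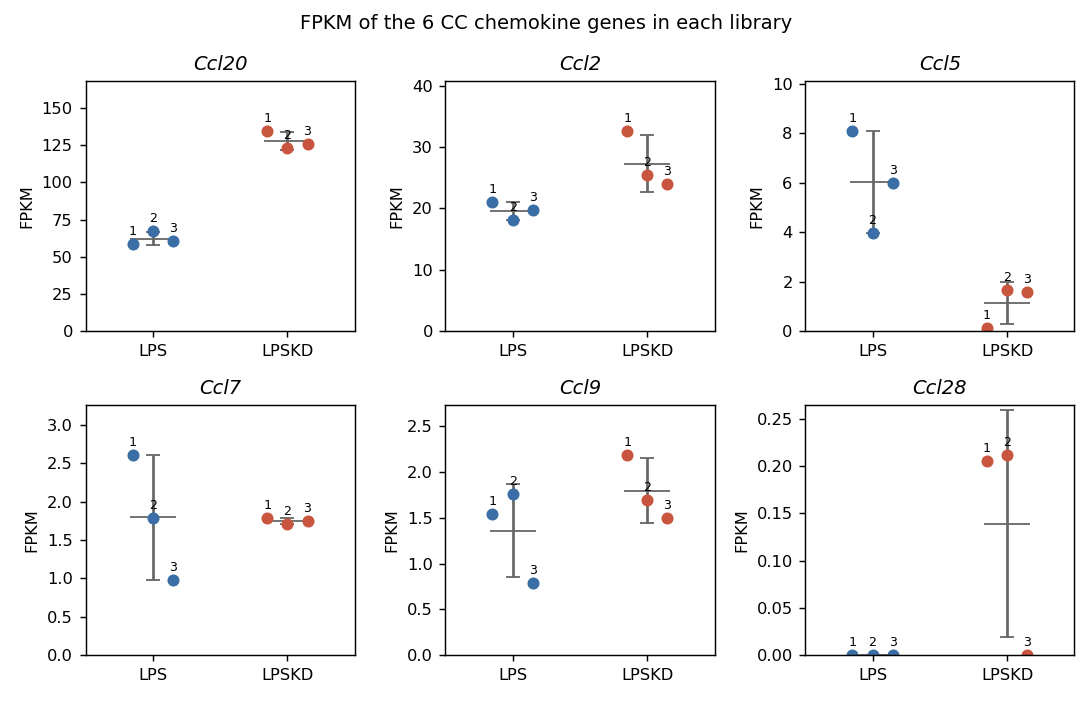
FPKM of the 6 CC chemokine genes (vertical axes, each from 0) in the LPS-labelled (blue) and the LPSKD-labelled libraries (red), with 1 point per library marked by its replicate number, and the mean and SD of the 3 libraries in grey. The points of Ccl20 lie between 58.8 and 67.2 in the LPS-labelled libraries and between 122.7 and 134.4 in the LPSKD-labelled ones, whereas those of Ccl7 and Ccl9 overlap.

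Differences were tested with limma on log2(FPKM + 0.1) over the 11723 genes with a mean FPKM from 0.5 upwards, and 5 of the 6 members were among them. On this scale 3.23% of all tested genes had an adjusted p under 0.05, with 1.57% higher and 1.66% lower in the LPSKD-labelled libraries. Of the members, Ccl20 passed and was higher. The groups did not overlap in 23.8% of all tested genes, 10.6% being higher and 13.2% lower in the LPSKD-labelled libraries. Among the members this held for Ccl20, Ccl2 and Ccl5. With 3 libraries a group, the smallest two-sided p of an exact permutation test is 0.1. The labels do not say whether the 3 libraries of a group came from independent experiments, so the p-values measure the spread between these libraries, which may be technical. In such bulk RNA, fewer cells of a type and less RNA per cell cannot be told apart.

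Ccl20, also known as MIP-3α, attracts Ccr6-bearing dendritic cells and lymphocytes and was the most abundant CC chemokine of these cells. The gene (ENSMUSG00000026166) spans 83116766 to 83119167 of GRCm38 chromosome 1, plus strand. It had FPKM of 58.8, 67.2 and 60.5 in the LPS-labelled libraries and 134.4, 122.7 and 125.9 in the LPSKD-labelled ones. All 3 libraries labelled LPSKD were above all 3 labelled LPS, and the gap between the groups was wider than the spread within either. The mean rose 2.05-fold, from 62.2 ± 4.44 to 127.7 ± 6.09 FPKM (SD, n = 3 each). The log2 fold change was 1.04 (standard error 0.06, 95% interval 0.90 to 1.17, limma adjusted p = 5.42e-05). These values rested on 483, 552 and 488 fragments in the LPS-labelled libraries and on 1108, 975 and 1056 in the LPSKD-labelled ones. The SD between libraries was 38.5 fragments in the former and 67.0 in the latter, against 22.5 and 32.3 that counting alone gives.

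The 250 bases upstream of the annotated start of Ccl20 (RefSeq, GRCm38.p6, chr1:83116516-83116765, plus strand) are shown because Ccl20 had the clearest difference. Those of Ccl9 (chr11:83578637-83578886, minus strand), which did not pass the test, are shown beside them. Both strands were searched for the NF-kB consensus and for AP-1 (TGANTCA) and GAS (TTCNNNGAA) motifs and for the ISRE, and matches to the first 2 are in capitals.
Ccl20: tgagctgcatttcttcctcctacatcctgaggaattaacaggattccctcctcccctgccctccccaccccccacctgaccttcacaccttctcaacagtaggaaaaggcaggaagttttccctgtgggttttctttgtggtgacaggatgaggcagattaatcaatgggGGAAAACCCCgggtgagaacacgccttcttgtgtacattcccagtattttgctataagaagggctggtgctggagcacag
Ccl9: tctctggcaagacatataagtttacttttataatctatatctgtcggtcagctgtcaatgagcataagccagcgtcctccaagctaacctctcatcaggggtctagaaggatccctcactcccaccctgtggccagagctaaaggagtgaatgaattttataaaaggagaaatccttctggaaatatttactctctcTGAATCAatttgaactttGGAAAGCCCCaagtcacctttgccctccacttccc
Each of the 2 promoters held 1 match to the NF-kB consensus, which reads along the strand opposite to the one shown. On the shown strand its letters are GGAAAACCCC in Ccl20 and GGAAAGCCCC in Ccl9. Of 32851 mouse promoters of the same length, 3.90% held such a match. Ccl9 also held the AP-1 letters TGAATCA, which 6.75% of the promoters held. Neither contained the GAS or ISRE letters, found in 7.02% and 2.98% of the promoters. The Ccl28 promoter contained none of the 4 motifs. A match describes the letters and does not show that a factor bound there.

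Ccl2, or MCP-1, attracts monocytes through Ccr2 and was the second most abundant member. The gene (ENSMUSG00000035385) lies on chromosome 11 from 82035571 to 82037453. The study read this transcript by real-time PCR with the primers cttctgggcctgctgttca (forward) and ccagcctactcattgggatca (reverse). The forward primer matched Ccl2 at chr11:82035680-82035698 in exon 1 and the reverse primer its antisense strand at chr11:82036531-82036551 in exon 2, which gives a product of 127 bases. Neither matched an annotated transcript of another gene. Its FPKM was 21.0, 18.1 and 19.8 in the LPS-labelled libraries and 32.6, 25.4 and 23.9 in the LPSKD-labelled ones. The groups did not overlap, and replicate 1 of the LPSKD-labelled libraries stood above the other two of its group. The means were 19.6 ± 1.5 and 27.3 ± 4.65 FPKM (SD, n = 3 each), a ratio of 1.39. The log2 fold change was 0.46 (standard error 0.12, 95% interval 0.20 to 0.73). Its unadjusted p of 0.00352 from limma became 0.0793 after adjustment over all genes, which was not past the threshold. Between 200 and 362 fragments per library stood behind these values. The SD of 16.5 fragments in the LPS-labelled libraries was close to the 14.7 that counting alone gives, whereas that of 52.5 in the LPSKD-labelled ones was above the counting value of 17.4. By real-time PCR, the study reported less Mcp-1 mRNA after Stat3 knockdown in mTECs given LPS. It reported the same for mTECs under hypoxia and reoxygenation and for injured kidneys with Stat3 deleted or silenced. With Stat3 overexpressed in mTECs it reported more. The means of Ccl2 here lay in the direction opposite to the knockdown results, without passing the test. The reason for this was not tested.

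Ccl7, or MCP-3, shares receptors with Ccl2 and lies 8.3 kb from it (ENSMUSG00000035373, chromosome 11 from 82045712 to 82047525). It was far less abundant than its neighbour. Its FPKM was 2.61, 1.79 and 0.981 in the LPS-labelled libraries and 1.78, 1.71 and 1.75 in the LPSKD-labelled ones, from 7 to 19 fragments per library. The groups overlapped, and the LPS-labelled libraries lay on both sides of the others. The means were 1.79 ± 0.817 and 1.75 ± 0.0384 FPKM (SD, n = 3 each). The log2 fold change of 0.06 (standard error 0.32, limma adjusted p = 0.947) had a 95% interval from −0.67 to 0.79. This interval leaves room for a ratio between 0.629 and 1.73, and a difference of the size seen for Ccl2 was not detectable at this depth. Without replicate 3 of the LPS-labelled libraries, which had 7 fragments, the log2 fold change turned to −0.29 (adjusted p = 0.640 from limma, with a range from 0.542 to 0.977 over all alternatives).

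Ccl5, or RANTES, attracts T cells and monocytes, and its gene is known to respond to interferon as well as to NF-kB. It was the member whose values were all lower in the LPSKD-labelled libraries, although it did not pass the test. The gene (ENSMUSG00000035042) lies on the minus strand of chromosome 11 from 83525778 to 83530518. Its FPKM was 8.09, 3.97 and 6.00 in the LPS-labelled libraries and 0.147, 1.67 and 1.58 in the LPSKD-labelled ones. Every library labelled LPSKD was below every library labelled LPS. The values corresponded to 55, 27 and 40 fragments in the former group and to 1, 11 and 11 in the latter, so replicate 1 of the LPSKD-labelled libraries held a single fragment. The mean was 5.31-fold lower, at 1.13 ± 0.857 against 6.02 ± 2.06 FPKM (SD, n = 3 each). The log2 fold change was −2.70 (standard error 0.69, 95% interval −4.29 to −1.12), with an unadjusted p of 0.00418 and an adjusted p of 0.0859 from limma, which was not past the threshold.

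The call for Ccl5 depended on that 1 library and on the treatment of low values. Without replicate 1 of the LPSKD-labelled libraries, the log2 fold change was −1.77 and the adjusted p from limma became 0.0303. With a pseudocount of 1 these were −1.77 and 0.0310, and with voom applied to the fragments −2.77 and 0.0300. Over all alternatives the adjusted p of Ccl5 from limma lay between 0.0300 and 0.220. Its SD between libraries was 14.0 and 5.77 fragments in the LPS-labelled and the LPSKD-labelled libraries, against 6.38 and 2.77 for counting alone.

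Ccl9, a rodent chemokine that binds Ccr1, lies 42.4 kb from Ccl5 (ENSMUSG00000019122, minus strand of chromosome 11 from 83572919 to 83578636). Its FPKM was 1.54, 1.76 and 0.783 in the LPS-labelled libraries and 2.19, 1.70 and 1.5 in the LPSKD-labelled ones, from 7 to 20 fragments per library. The groups overlapped. The means were 1.36 ± 0.511 and 1.80 ± 0.352 FPKM (SD, n = 3 each). Their log2 difference in the fit was 0.43 (standard error 0.31, 95% interval −0.28 to 1.15, limma adjusted p = 0.526). The interval of the ratio ran from 0.822 to 2.22.

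Ccl28, a chemokine of mucosal epithelia that binds Ccr10 and Ccr3, was at the limit of detection. The gene (ENSMUSG00000074715) lies on chromosome 13 from 119623819 to 119654359. It had 0 fragments in each of the LPS-labelled libraries and 2, 2 and 0 in the LPSKD-labelled ones. A count of 0 allows up to 3 fragments, which is 0.303 to 0.319 FPKM in these libraries, above the highest value measured (0.212). Both groups were thus under the floor, no fold is given, and the groups overlapped.

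**Figure D2:**
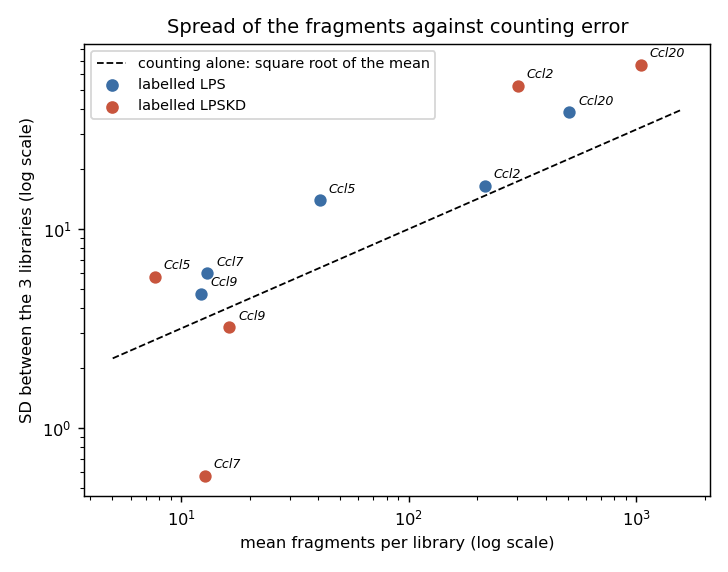
SD of the fragments between the 3 libraries of a group (vertical axis, log scale) against their mean (horizontal axis, log scale) for the 5 members with a mean FPKM of at least 0.5, in the LPS-labelled (blue) and the LPSKD-labelled libraries (red). The dashed line is the SD from counting alone, and Ccl7 in the LPSKD-labelled libraries lies below it (0.577 against 3.56), as does Ccl9 (3.21 against 4.04), whereas Ccl5 and Ccl20 lie above it in both groups.

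To compare pairs of members within a library, log2 ratios of their FPKM were formed. The Ccl20 to Ccl2 log2 ratio was 1.48, 1.89 and 1.61 in the LPS-labelled libraries and 2.04, 2.27 and 2.39 in the LPSKD-labelled ones. The groups did not overlap and differed by 0.58, so Ccl20 was further above Ccl2 in the LPSKD-labelled libraries. The Ccl9 to Ccl5 log2 ratio was −2.32, −1.13 and −2.79 in the LPS-labelled libraries, where Ccl5 was the higher of the pair. It was 3.21, 0.02 and −0.07 in the LPSKD-labelled ones, a difference of 3.14 between the means and 2.06 without replicate 1 of the LPSKD-labelled libraries. The Ccl7 to Ccl2 log2 ratio overlapped between the groups, with means of −3.48 ± 0.65 and −3.88 ± 0.22 (SD, n = 3 each). The exact permutation p was 0.1 for the first 2 ratios, the smallest that 3 against 3 allow, and 0.4 for the third. Adjusted over the 3 ratios, the exact p-values were 0.15, 0.15 and 0.4, so none passed.

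Of 24 CC ligand genes listed for comparison, 23 were in the table and 19 were above 0 in at least 1 library. Summed over the 23, the FPKM was 106.3, 108.7 and 109.9 in the LPS-labelled libraries and 183.9, 170.3 and 170.2 in the LPSKD-labelled ones. The sum was higher in each of the latter, and most of it was Ccl20. The share of Ccl20 in the sum was 57.4% ± 3.82 (SD, n = 3) in the LPS-labelled libraries and 73.0% ± 0.945 (SD, n = 3) in the LPSKD-labelled ones. Ccl2 made up 18.1% ± 1.6 and 15.5% ± 1.93, and Ccl5 5.58% ± 1.98 and 0.664% ± 0.507 (SD, n = 3 each). The 6 members together made up 80.1% to 86.7% of the sum in the LPS-labelled libraries and 90.1% to 93.2% in the LPSKD-labelled ones. These shares depend on one another, because they add up to the whole, and no test was made on them.

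**Figure D3:**
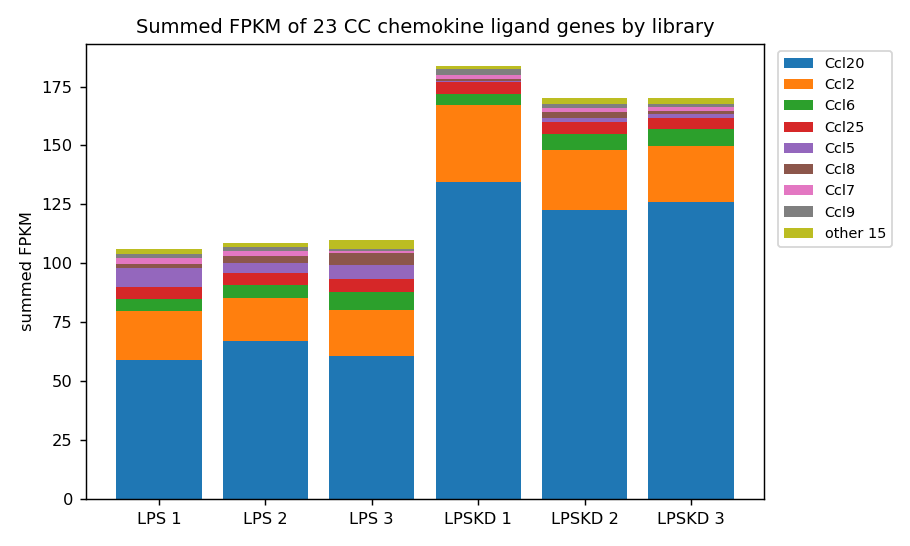
Summed FPKM of 23 CC chemokine ligand genes in each library (bars from 0), divided by gene, with 15 genes of low level joined. Ccl20 is the largest part of every bar, and the 3 bars of the LPSKD-labelled libraries (170.2 to 183.9) are taller than those of the LPS-labelled libraries (106.3 to 109.9).

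Among the 9 CC ligands with a mean FPKM of at least 0.5, Ccl20 was called higher and none lower, and their median log2 fold change was 0.02, against −0.008 over all tested genes. Ccl6 and Ccl25, which are not members, had more fragments than Ccl7 or Ccl9. Ccl6, a myeloid chemokine of rodents, had 6.09 ± 1.17 and 6.17 ± 1.19 FPKM (SD, n = 3 each), and Ccl25, which attracts thymocytes and gut lymphocytes through Ccr9, had 5.19 ± 0.428 and 5.01 ± 0.305. Their log2 fold changes were 0.02 (95% interval −0.39 to 0.43) and −0.05 (95% interval −0.31 to 0.21), not past the threshold (limma, adjusted p = 0.974 and 0.875). Ccl8 had 13, 24 and 34 fragments in the LPS-labelled libraries and 8, 20 and 10 in the LPSKD-labelled ones, with a log2 fold change of −0.87 (limma, adjusted p = 0.325). Ccl12 had 3 to 15 fragments in a library, and its log2 fold change was −0.09 (limma, adjusted p = 0.955).

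The members on chromosome 11 belong to a pair of gene clusters. In the first, Ccl2 and Ccl7 are followed by Ccl11, Ccl12, Ccl8 and Ccl1. Ccl11 had at most 7 fragments and Ccl1 at most 1. In the second, Ccl5 and Ccl9 are followed by Ccl6, Ccl3 and Ccl4. Ccl4, which attracts monocytes and T cells, had 5, 4 and 3 fragments in the LPS-labelled libraries and 0, 1 and 1 in the LPSKD-labelled ones. Its groups did not overlap. The mean of Ccl4 in the LPS-labelled libraries was 1.33-fold above the floor of 3 fragments per library in the LPSKD-labelled ones. This ratio leaves out the counting error of that mean, so it is no lower bound on the difference. The adjusted p of Ccl4, 0.0898 from limma in a fit of all genes above 0, did not pass. Ccl3 had 2, 6 and 1 fragments against 1, 0 and 3, and the groups overlapped. Outside these clusters, Ccl17 had at most 4 fragments and Ccl27a at most 5 in any library.

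**Figure D4:**
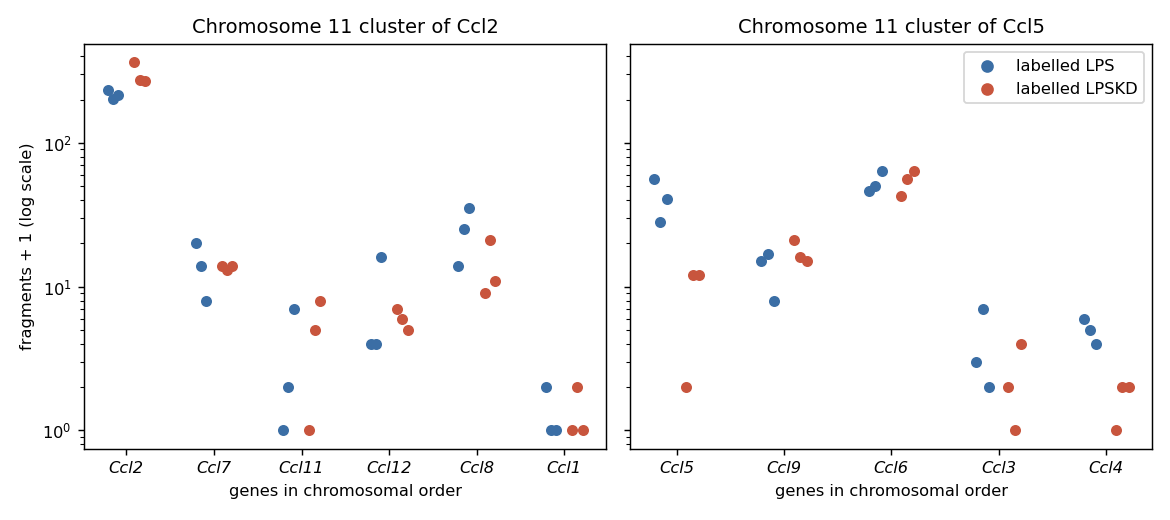
Fragments plus 1 (vertical axis, log scale) for the CC ligand genes of the clusters of Ccl2 (left) and Ccl5 (right) on chromosome 11, in chromosomal order, with 1 point per library labelled LPS (blue) or LPSKD (red). The groups are apart for Ccl2, Ccl5 and Ccl4 and overlap for the other genes, none of which has more than 63 fragments.

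**Figure D5:**
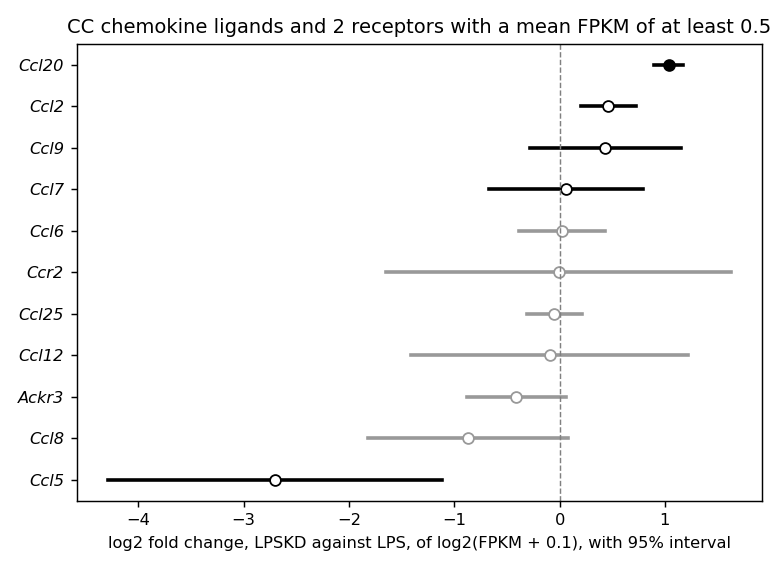
Log2 fold change of the LPSKD-labelled libraries against those labelled LPS (horizontal axis, on log2(FPKM + 0.1)) with the 95% interval from limma, for 9 CC ligands and 2 receptors with a mean FPKM of at least 0.5. Members are in black and other genes in grey, and the filled point, Ccl20 at 1.04, is past the threshold whereas the open points are not.

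The receptors of the members were at low levels in these cells. Of 16 conventional and atypical CC receptor genes, 12 were above 0 and 3 had a mean FPKM of at least 0.5, and none passed the test. None of the receptors was called at any of the alternatives. Ccr6, the receptor of Ccl20, had a single fragment in all 6 libraries together, and Ccr10, a receptor of Ccl28, had none. Ccr2, the receptor of Ccl2 and Ccl7, had 2 to 28 fragments in a library, and its log2 fold change was −0.01 (95% interval −1.65 to 1.63). Ccr1 had 9, 11 and 2 fragments in the LPS-labelled libraries and 12, 22 and 13 in the LPSKD-labelled ones, and its groups did not overlap (limma, adjusted p = 0.420). Ackr3, a scavenger that binds CXC chemokines, was the most abundant at 4.59 ± 0.212 and 3.54 ± 1.10 FPKM (SD, n = 3 each). It had a log2 fold change of −0.41 (limma, adjusted p = 0.355). Ccr1l1 had 0 to 18 fragments, Ccrl2 3 to 14 and Ackr1 at most 4.

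Genes that act upstream of the chemokines were listed in groups. Of 11 genes of LPS recognition, 10 were tested and none passed, with a median log2 fold change of −0.03. Cd14, a co-receptor for LPS, had 64.0 ± 1.36 and 73.3 ± 2.54 FPKM (SD, n = 3 each), with an adjusted p of 0.05 from limma that was not under the threshold. Tlr4 had 17.5 ± 0.934 and 18.3 ± 0.786, and the kinase gene Irak1 54.9 ± 2.70 and 54.7 ± 1.40. Of 27 transcription regulators of chemokine genes, 3 were lower and none higher. They included Irf7 and Stat2, which act in the interferon response, with log2 fold changes of −2.55 and −0.52 (limma, adjusted p = 0.00157 and 0.0131). The mean of Ccl5 was also lower in these libraries, without passing the test, and the part of these regulators in its level was not tested. Nfkb1 had 90.2 ± 2.78 and 101.1 ± 2.67 FPKM (limma, adjusted p = 0.0759), and of the AP-1 genes Junb had 142.4 ± 3.57 and 141.8 ± 6.4 and Fosl1 119.2 ± 5.32 and 106.6 ± 5.36 (SD, n = 3 each).

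Genes that act on chemokine transcripts or proteins were listed likewise. Of 9 genes of mRNA decay and stability none passed, and the most abundant, Zfp36l1, Hnrnpd and Elavl1, had log2 fold changes of 0.10, −0.11 and 0.07. Of 15 genes for proteases that trim chemokines and for the proteoglycans that hold them, 11 were tested and 2 were higher. Plau, the urokinase gene, rose from 860.7 ± 10.1 to 948.6 ± 10.9 FPKM, and Ndst1, a heparan sulfate sulfotransferase gene, from 44.5 ± 4.09 to 56.3 ± 2.48 (SD, n = 3 each). On the log2 scale these were rises of 0.14 and 0.34 (limma, adjusted p = 0.0424 and 0.0401). These calls were not stable, with none of this list called without replicate 3 of the LPS-labelled libraries or without any 1 of the LPSKD-labelled ones. Without replicate 1 of the LPS-labelled libraries 1 gene was called, and without replicate 2 of these 1 gene was called lower. The proteoglycan genes Sdc4 and Sdc1 and the protease gene Adam10 had log2 fold changes of −0.05, −0.20 and −0.03, not past the threshold.

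Markers of other cell types were measured beside the chemokines, because leukocytes are a source of Ccl5 and Ccl6. All 19 leukocyte markers were above 0. Of the 13 tested, 1 was called higher and 11 had negative log2 fold changes (median −0.30), and the FPKM summed over all 19 was 94.9 to 98.2 in the LPS-labelled libraries and 91.1 to 108.2 in the LPSKD-labelled ones. Ptprc, which encodes the pan-leukocyte protein CD45, had 0.880 ± 0.202 and 0.818 ± 0.387 FPKM (SD, n = 3 each). It had 65, 86 and 102 fragments in the LPS-labelled libraries and 36, 96 and 104 in the LPSKD-labelled ones. The B-cell marker Ms4a1 had at most 1 fragment, and Csf1r, at 24.4 ± 2.74 and 33.3 ± 0.583 FPKM, was higher in the LPSKD-labelled libraries (limma, adjusted p = 0.0208). The sum of 7 fibroblast markers was 34.9 to 44.4 FPKM against 23.6 to 45.2, lowest in replicate 1 of the LPSKD-labelled libraries. The same library had the lowest leukocyte sum (91.1) and the lowest Ptprc, beside the lowest Ccl5 and the highest Ccl2 and Ccl20. Other libraries did not follow this order. Replicate 1 of the LPS-labelled libraries had the lowest Ptprc of its group (0.673 FPKM) and the highest Ccl5 (8.09). Replicates 2 and 3 of the LPSKD-labelled ones had Ptprc of 1.03 and 1.05 FPKM but Ccl5 of 1.67 and 1.58. The sum of 6 endothelial markers was 3.69 to 7.73 against 5.24 to 7.99. These sums overlapped between the groups, and the part of other cells in the chemokine values was not tested. All 7 fibroblast markers had negative log2 fold changes (median −0.21) and the 4 tested endothelial markers positive ones (median 0.48), and none of these passed. Without replicate 1 of the LPSKD-labelled libraries, the log2 fold change was 1.00 for Ccl20 and 0.33 for Ccl2.

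For each member except Ccl28, which had too few fragments, the genes whose log2 FPKM followed it most closely over the 6 libraries were picked from all tested genes. Ccl20 was followed by Fcho2, Cpne5 and Cxcl2, with Pearson's r of 0.998, 0.997 and 0.996. Cxcl2, a neutrophil-attracting CXC chemokine, averaged 111.5 FPKM in the LPS-labelled libraries and 162.7 in the LPSKD-labelled ones. Ccl2 was followed by Stk16, Gm13420 and Mknk2 (r = 0.985, 0.985 and 0.981), and Ccl5 by Zfp956, Cflar and Oas2 (r = 0.994, 0.992 and 0.991). Ccl7 was followed by Apod, Hdac11 and Ppip5k1 (r = 0.995, 0.974 and 0.969), and Ccl9 by Rab11a, Tmem95 and Vamp4 (r = 0.978, 0.976 and 0.970). These genes are the closest of 11723, and the 6 points share the difference between the groups. For Ccl7 and Ccl9 the values rest on few fragments, as do those of Ccl5 in the LPSKD-labelled libraries (1, 11 and 11). The likenesses are thus given as a description.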

How the data were processed

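RNA-seq values of 6 mTEC libraries were taken as deposited. The authors deposited FPKM values, 1 per gene and library, with no pooling of replicates. The submitters' processing notes list HISAT2 2.0, StringTie 1.3.0 and Bowtie 0.12.2 and the builds mm8 and GRCh38.p13 without roles, and neither the counting settings, the strand setting nor the filters are given in the sources used here. Symbols and positions are from GENCODE M21 (GRCm38), which matched 22399 of 22442 identifiers.

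Whole fragments were recovered as FPKM times length times library total. This gave whole numbers for 99.99% of the 16837 genes above 0. The limit was 0.02 fragments, and slightly wider for genes with the most fragments. For 97.8% the length was that of the merged coding sequence plus at most 10 bases. For 374 genes it was instead the smallest length found by search that made the values of all libraries whole. Such a length is not an annotated one. With the totals raised by 0.1%, 9.36% of the genes with over 20 fragments were whole within 0.05. Totals were 24084827 to 25422171 fragments. A group with no more than 3 fragments in any library was taken as at the floor, and floors and intervals from counts cover counting error only.

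Tests used limma 3.58.1 in R 4.3.3 (lmFit, eBayes with trend) on log2(FPKM + 0.1), restricted to genes whose FPKM averaged 0.5 or more, with Benjamini-Hochberg adjustment at 0.05. Because of the pseudocount, fold changes of low genes come out too small. Named genes under that mean were read from a fit of all genes above 0. Exact permutation tests were two-sided over 20 assignments of the labels. Named genes are the 6 members, Stat3, CC ligands and receptors with more than 3 fragments in a library, and from each other list the genes past the threshold and the 3 highest of the rest. They also take in cell type markers that lead their list or are at 0, and the 3 genes most like each member. Further low genes are named for their receptor role or position. Some genes that this rule covers are not reported here. The members and lists were chosen with earlier results of these data known. The fits were also run on simulated data with counting error and a fixed added spread. That setting does not match the wider spread of Ccl5, so nothing is read from it for this gene. The alternatives were pseudocounts of 1 and 0.01, a filter at 1 or none, quantile normalization, median centring, a block for the replicate number, eBayes without trend, voom, and each library left out. Sequences were read from GENCODE M21, RefSeq (3 of the 6 members had a promoter entry) and the supplementary primer list with Python 3.11.15, and figures drawn with matplotlib 3.10.9.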

Additional observations from a re-analysis of the deposited data

How the results depend on the processing

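Ccl20, Ccl2 and Ccl9 kept their direction and their side of the threshold under all 15 alternatives, with log2 fold changes of 1.00 to 1.10, 0.33 to 0.55 and 0.11 to 0.64. The adjusted p of Ccl2 lay between 0.0570 and 0.201 (limma). Ccl5 passed with a pseudocount of 1 (−1.77), with voom on the recovered fragments (−2.77) and without replicate 1 of the LPSKD-labelled libraries. Leaving out 1 library gave −3.19 to −1.77 for Ccl5, −0.29 to 0.37 for Ccl7 and −0.06 to 0.04 for Stat3. For Ccl28 both groups were under the floor, and its fitted value is set by the pseudocount (0.18 with 1 and 2.97 with 0.01), so it is no measure of a difference. This holds also for its 0.80 to 1.63 with 1 library left out, where it passed without LPSKD replicate 3. It could not be fitted with the filter at 1. The count of genes past the threshold, 379, became 140 without trend, 213 with the replicate block, 598 with voom and 158 to 357 with 1 library left out. The lowest of these came from omitting LPS replicate 3, and omitting any 1 LPSKD library gave 168 to 190. Among CC ligands, 2 genes passed with a pseudocount of 1 or voom, and 1 to 2 with 1 library left out. Of the transcription regulators 7 passed with voom. Of the genes of chemokine processing, 0 passed with no filter or without trend, 1 with the replicate block, and 0 to 1 with 1 library left out. Of the LPS recognition genes, 1 passed with a pseudocount of 1, a filter at 1, median centring or voom. The cause of these moves was not tested.

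Same-numbered libraries did not deviate together (correlations of −0.016, −0.00388 and −0.0426), so the values gave no sign of a pairing by number. This cannot show that the libraries were unpaired. The replicate block changed no call among the members, and it lowered the count of genes past the threshold to 213. Depth limits Ccl7, Ccl9 and Ccl28, with at most 20 fragments in a library.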
